A study of Mus musculus with 8 samples.

Results

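The genes examined here are 42 DNA damage repair genes, taken by symbol (GENCODE M21) from a table of 56691 Ensembl gene identifiers, and all 42 were found and passed the filter on low counts that left 15755 genes for testing. Messenger RNA was measured in 8 tumours grown in C57BL/6J mice from cells labelled MC38, a mouse colon carcinoma line. The labels call these tumours xenografts, although line and host are both mouse. There were 4 control tumours and 4 tumours treated with C26, an agent known here only by its code, dosed at 10 mg/kg every second day over a period of 2 weeks. The control treatment is not described further, and neither the age of the mice nor whether each tumour came from its own animal is stated, so the p-values speak only of the variation among these 8 samples, which may be technical.

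DNA repair is divided among pathways that each answer a kind of lesion. Kinases and sensors (ATM, ATR, the MRN complex) detect damage and halt the cell cycle, homologous recombination and the Fanconi anemia pathway use a sister copy to mend double-strand breaks and crosslinks, and end joining seals breaks directly. PARP-dependent single-strand break repair, mismatch repair and nucleotide excision repair deal with nicks, replication errors and bulky lesions. Many genes of the recombination and Fanconi pathways are transcribed most strongly in replicating cells, and in tumours their transcripts are known to follow proliferation, whereas end joining and excision genes are transcribed more evenly through the cell cycle.

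Repair transcripts differed little between C26 and control tumours. Of the 42 genes, Wrn rose and Xpa fell in edgeR's quasi-likelihood test (adjusted p under 0.05), which is 4.76% of the list, while 7.76% of all tested genes passed, 3.64% higher and 4.12% lower. The median log2 fold change was 0.06 over the list and 0.005 over all tested genes. Of the 42 genes 28 lay above 0, beside 51% of all tested genes. At an unadjusted p under 0.05 there were 12 repair genes, 8 of them higher in C26, against 25.6% of all tested genes. The 95% interval of the difference lay within a 1.5-fold change in either direction for 41 of 42 genes, Atm being the exception. The groups did not overlap for 7 genes (16.7%), of which Wrn, Bard1, Lig3 and Fanca were higher and Xpa, Ercc1 and Rad51b lower, beside 16.1% of all tested genes (7.91% higher, 8.14% lower). Scaled by total library size, 34 of the 42 lay above 0 at a median of 0.13. Of all 15755 tested genes 9975 did, at a median of 0.08. With that scaling 78.7% of all passing genes were higher, against 46.9% with TMM factors. The tally also moved the other way: 11 of the 42 lay above 0 with skeletal muscle markers as a covariate (median -0.12), 18 without C26 libraries 2 and 3 (median -0.05) and 20 with a length and GC correction (median -0.03). Over all tested genes in those fits, in the same order, 8048 of 15755, 8298 of 16310 and 7119 of 15755 lay above 0. The muscle covariate (mean log2 CPM) was -1.55, 0.737, -1.35 and -1.32 in control and 1.38, 4.87, 2.94 and 0.643 in C26. It largely follows group, so that fit cannot tell muscle RNA and treatment apart. Its standard errors were also larger, as for Wrn (0.119 against 0.0754), so a call can be lost without a smaller difference.

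**Figure D1:**
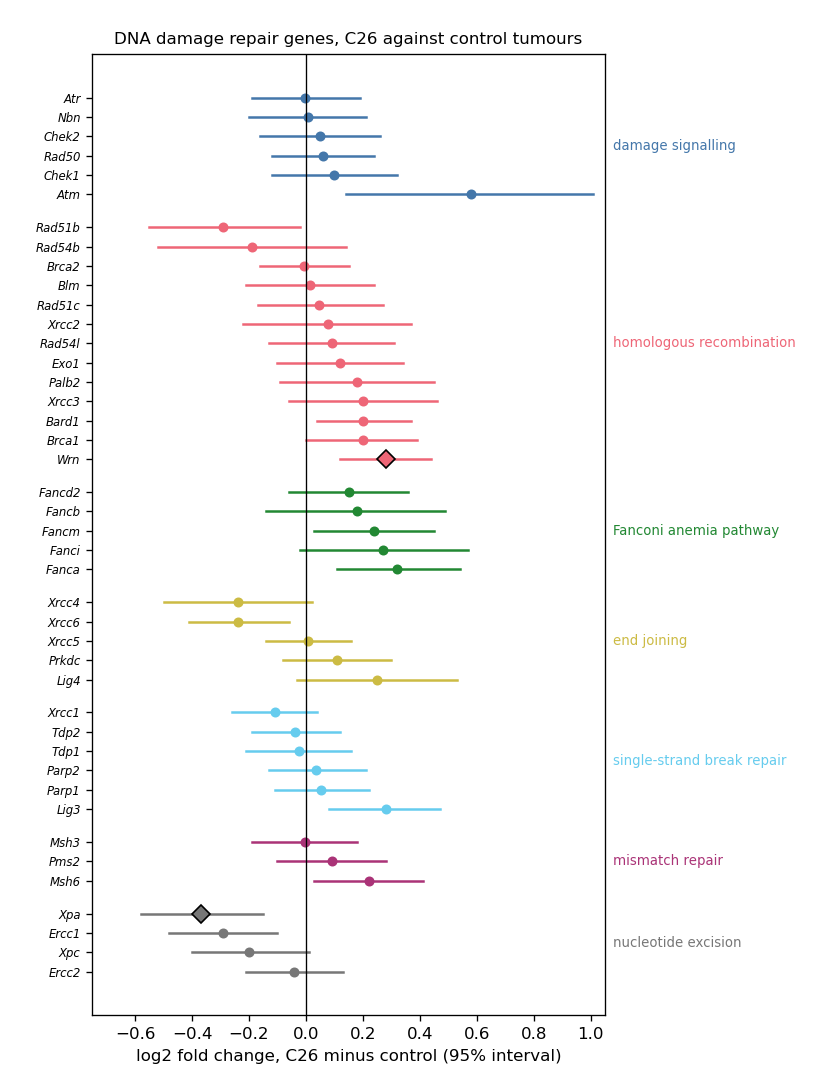
Log2 fold change (x axis, C26 minus control) of each repair gene with its 95% interval, ordered by role; diamonds mark genes past the adjusted threshold. Wrn at 0.28 and Xpa at -0.37 are the diamonds, and the 4 nucleotide excision genes lie below 0 while the 5 Fanconi genes lie above it.

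Total counts ran from 17075176 to 21517425 per library, and the mean count of a repair gene ran from 106 to 3067. The standard error of a log2 fold change was 0.098 in the median gene (range 0.0696 to 0.203). Of 8 markers of colon epithelium, Cdh1 stood between 2.39 and 3.81 CPM, the other 7, among them Krt8, Krt18, Epcam and Vil1, were at or below 0.317 CPM in every library, and Cdx2 was at 0. The labelled colon origin therefore has no support from these epithelial markers, and the identity of the line was not tested. Skeletal muscle transcripts were uneven, with a summed level over 15 markers of 11.5 to 49.8 CPM in control and of 52.9, 763, 169 and 30.1 CPM in C26 libraries 1 to 4. Red blood cell markers (5 genes) summed to 22.9 to 100 CPM in control and 8.41 to 11.9 CPM in C26, and endothelial markers (7 genes) to 54.1 to 92.9 and 84 to 99.8 CPM. Lymphocyte markers (10 genes) summed to 4.85 to 9.34 CPM in control and 5.93 to 7.55 CPM in C26. Summed fibroblast markers (10 genes) ran from 3315 to 5122 CPM in control and from 5607 to 7828 CPM in C26, and summed macrophage markers (7 genes) from 548 to 820 and from 468 to 703 CPM. In whole-tumour RNA, fewer cells of a type and less RNA per cell cannot be told apart, and the part of these other cells in the values below was not tested.

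Promoters of 4 genes are shown because they represent the gene that fell and a sequence word that was found in few promoters overall. They are the 250 bases before the RefSeq gene start (GRCm38.p6), written 5′ to 3′ along the gene, with capitals on matches to an E2F-type motif (TTTCGCGC, TTTGGCGC, TTTCCCGC or TTTGCCGC) or to CCAAT, on either strand. E2F factors are the main regulators of genes needed for DNA replication, and CCAAT is the binding word of NF-Y.
Xpa (chr4:46196312-46196561, minus strand): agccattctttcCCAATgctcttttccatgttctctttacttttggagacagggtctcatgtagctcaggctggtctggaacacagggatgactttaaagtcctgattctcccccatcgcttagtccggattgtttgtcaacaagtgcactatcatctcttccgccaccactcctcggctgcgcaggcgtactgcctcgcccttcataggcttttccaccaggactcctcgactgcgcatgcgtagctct
Bard1 (chr1:71102973-71103222, minus strand): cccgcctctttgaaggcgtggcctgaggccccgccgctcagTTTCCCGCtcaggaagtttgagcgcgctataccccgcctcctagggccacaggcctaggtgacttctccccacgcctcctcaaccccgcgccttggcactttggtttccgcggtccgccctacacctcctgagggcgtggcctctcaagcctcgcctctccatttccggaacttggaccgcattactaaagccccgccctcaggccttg
Brca2 (chr5:150522371-150522620, plus strand): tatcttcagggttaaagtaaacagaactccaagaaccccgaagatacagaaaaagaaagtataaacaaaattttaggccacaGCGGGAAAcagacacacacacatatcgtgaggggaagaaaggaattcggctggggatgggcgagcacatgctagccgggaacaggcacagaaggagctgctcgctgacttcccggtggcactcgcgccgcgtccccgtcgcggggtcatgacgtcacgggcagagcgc
Msh3 (chr13:92355004-92355253, minus strand): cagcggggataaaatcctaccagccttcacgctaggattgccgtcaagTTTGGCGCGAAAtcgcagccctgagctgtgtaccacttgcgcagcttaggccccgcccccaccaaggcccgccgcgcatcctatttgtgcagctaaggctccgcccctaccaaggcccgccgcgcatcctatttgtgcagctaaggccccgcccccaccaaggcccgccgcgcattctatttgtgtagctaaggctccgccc
RefSeq promoters matched 32 of the 42 genes. Wrn, the gene that rose, had none and was not searched. Where a gene had several promoters, only the first was searched, so the shares count genes. An E2F-type word stood in 5 of the 32 (15.6%), namely Bard1, Brca2, Chek2, Msh3 and Xrcc6. It stood in 7 of 20 replication genes (35%), 6 of 103 other repair genes (5.83%) and 1.91% of all 27025 genes with a promoter of that length. CCAAT stood in 16 of the 32 (50%), in 49.5% of the other repair genes, in 65% of the replication genes and in 34.5% of all genes with a promoter. Words of the CHR motif (TTTGAA or TTCGAA) were also searched and are not put in capitals. They stood in 3 of the 32 (9.38%), namely Atr, Bard1 and Tdp1. The share was 14.6% of the other repair genes, 20% of the replication genes and 17.4% of all genes with a promoter. The Xpa window holds CCAAT and no E2F-type word, and in Msh3 a pair of E2F-type words overlap on opposite strands. A match describes letters and not binding. Of the 5 genes with the E2F-type word, Bard1 and Chek2 had log2 fold changes of 0.20 and 0.049, Brca2 and Msh3 of -0.0066 and -0.0038, and Xrcc6 of -0.24.

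Among the damage sensing and signalling genes none passed, and 5 of 6 lay above 0 (median log2 fold change 0.05). Atm, the kinase that answers double-strand breaks, was the most uneven gene of the list. Its level was 8.54, 6.77, 6.72 and 7.88 CPM in control libraries 1 to 4 and 6.28, 14.2, 12.8 and 11.3 CPM in C26 libraries 1 to 4. C26 library 1 was thus the lowest of all 8 libraries and the other C26 libraries were the 3 highest. The log2 fold change was 0.58 (95% interval 0.14 to 1.01, edgeR adjusted p = 0.096), and without C26 library 1 it was 0.77 with an adjusted p = 0.00495. Leaving out any other single library gave no call (0.44 without C26 library 2), while DESeq2 and the fit without a low-count filter called it. Atr, the kinase of stalled replication forks, was at 72.1 ± 4.87 CPM in control and 71.9 ± 9.64 in C26 (SD, n = 4), with an interval of -0.19 to 0.19. It ran from 66.9 to 78.6 CPM in control and stood at 61.9, 84.9, 69 and 71.8 CPM in C26 libraries 1 to 4, so that C26 holds both the lowest and the highest library. The checkpoint kinase genes Chek1 and Chek2 had log2 fold changes of 0.10 and 0.049, and Rad50 and Nbn, subunits of the MRN complex that holds broken ends, of 0.061 and 0.006 (adjusted p from 0.573 to 0.98). Per kilobase of transcript, Rad50 was the highest of these genes at 14.8 CPM per kb and Atm the lowest of all 42 at 0.951.

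Homologous recombination genes had 1 of 13 higher and none lower, with 10 above 0 and a median of 0.09. Wrn, which encodes the RecQ helicase and exonuclease lost in human Werner syndrome, lies on chromosome 8 from 33234384 to 33385527 (GENCODE M21, GRCm38). Wrn was at 31, 30.7, 30.1 and 31.6 CPM in control libraries 1 to 4 and at 37.8, 37.8, 34.5 and 39.5 CPM in C26 libraries 1 to 4. Every C26 library exceeded every control library. The log2 fold change was 0.28 ± 0.0754 (SE), or 1.21-fold (edgeR adjusted p = 0.034). Of the 8 fits that drop a single library, those lacking C26 library 1 or C26 library 3 kept the call and the other 6 lost it (edgeR adjusted p up to 0.0974, log2 fold change 0.25 to 0.32). A correction for length and GC gave 0.11 (adjusted p = 0.418) and the muscle covariate 0.32 (adjusted p = 0.187).

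Brca1 and its ubiquitin ligase partner Bard1 had the same log2 fold change, 0.20, and neither passed. Bard1 stood at 34.4, 33.3, 31.2 and 31 CPM in control and 36.4, 38.5, 39.7 and 34.7 CPM in C26, with no overlap and a narrow gap (edgeR adjusted p = 0.12). Brca1 stood at 47.7, 41.5, 40.2 and 39.3 CPM in control and 43.5, 56, 50 and 44.4 CPM in C26 (adjusted p = 0.188). Control library 1 lay above 2 of the 4 C26 libraries for Brca1. The mean log2 ratio of Brca1 to Bard1 was 0.37 in both groups. Brca2, a central mediator of recombination, was at 55.4, 58.9, 51.9 and 60.4 CPM in control and 54.5, 59.4, 56.7 and 54.9 CPM in C26. The groups overlapped throughout, and the interval of the log2 difference was -0.16 to 0.15. Palb2, which bridges BRCA1 and BRCA2, had a log2 fold change of 0.18 (adjusted p = 0.389).

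None of Rad51b, Rad51c, Xrcc2 and Xrcc3, whose products act together in recombination, passed. Rad51b, the least abundant of these in CPM, was at 7.55, 9.04, 8.3 and 8.24 CPM in control and at 7.23, 6.54, 7.16 and 6.23 CPM in C26. All 4 C26 libraries were lower, without passing (log2 fold change -0.29, edgeR adjusted p = 0.17). Rad51c, Xrcc2 and Xrcc3 had values of 0.047, 0.077 and 0.20. The remaining genes of this role are the motor protein gene Rad54l (0.092) and its relative Rad54b (-0.19), the resection nuclease gene Exo1 (0.12) and the Bloom syndrome helicase gene Blm (0.016), with adjusted p from 0.462 to 0.945. Rad54b shares 2068 exon bases with Fsbp on the same strand, and its level is uncertain to that extent.

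All 5 listed Fanconi genes lay above 0 (median log2 fold change 0.24). None passed edgeR's adjusted threshold, while 2, Fanca and Fancm, had an unadjusted p under 0.05. The 16 Fanconi genes outside the 42 did not share that direction. Of these, 8 lay above 0 and 8 below (median -0.00), with 2 called lower and none higher. Fanca, a core complex subunit, was at 40.3, 41.8, 35.7 and 42.3 CPM in control and 46.6, 62.7, 45.9 and 45.3 CPM in C26. C26 library 2 stood far above the other C26 libraries, which still lay above every control (log2 fold change 0.32, edgeR adjusted p = 0.0647). DESeq2 called Fanca, as did edgeR with total library size, without the filter or with a surrogate variable, and its value was 0.20 without C26 library 2 and 0.016 with the muscle covariate (adjusted p = 0.971). The substrate pair of that core, Fancd2 and Fanci, was at 24.2 ± 2.01 and 6.39 ± 0.37 CPM in control and at 26.8 ± 3.1 and 7.73 ± 1.01 CPM in C26 (SD, n = 4). Fancd2 ran from 21.7 to 26.1 CPM in control and stood at 25.7, 30.8, 27.5 and 23.4 CPM in C26 libraries 1 to 4. Fanci ran from 5.94 to 6.82 CPM in control and stood at 6.33, 8.72, 8.03 and 7.85 CPM in C26. Both overlapped between groups (edgeR adjusted p = 0.349 and 0.224). Fancb, another core subunit, and Fancm, the translocase that anchors the core to DNA, had log2 fold changes of 0.18 and 0.24 (adjusted p = 0.482 and 0.142). Fanca and Fanci share 920 and 921 exon bases with Zfp276 and Polg on the opposite strand, and reads there may have been left out or assigned to either gene. The 5 Fanconi genes also lay above 0 under every alternative but the skeletal muscle covariate, where 3 of 5 did at a median of 0.02. Their median was 0.08 with the length and GC correction and 0.15 without C26 libraries 2 and 3.

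In end joining, neither subunit of Ku, the ring that caps broken ends, passed. Xrcc6 (Ku70) was at 78.4, 89.2, 79.9 and 96.4 CPM in control and 68.9, 78, 78.5 and 66.4 CPM in C26, with a log2 fold change of -0.24 (edgeR adjusted p = 0.091), and it was called lower without C26 libraries 2 and 3 (-0.34, adjusted p = 0.0469). Xrcc5 (Ku80) was at 56.2, 60.6, 53.4 and 60.3 CPM in control and 59.3, 57.2, 56.2 and 59.1 CPM in C26, with an interval of -0.14 to 0.16. For Xrcc6, C26 library 3 lay just above the lowest control and the other C26 libraries below it, and for Xrcc5 the groups were mixed. Prkdc, the catalytic kinase that Ku recruits, was at 20.6, 22.7, 20.4 and 20.4 CPM in control and 24.7, 23.2, 20.2 and 22.8 CPM in C26 (log2 fold change 0.11, adjusted p = 0.48). The ligase gene Lig4 and its scaffold gene Xrcc4 had values of 0.25 and -0.24 (adjusted p = 0.256 and 0.238).

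Single-strand break repair holds the most abundant genes of the list. Parp1, the main sensor of nicks, reached 40.4 CPM per kb over the 8 libraries, 42.4 times Atm, and was followed by Tdp2 (34.2), Xrcc1 (31.5) and Parp2 (26.6). Parp1 was at 153, 156, 148 and 156 CPM in control and 148, 169, 178 and 142 CPM in C26, a log2 fold change of 0.054 with an interval of -0.11 to 0.22. The C26 libraries spread on both sides of the controls. Lig3, the ligase that closes nicks with XRCC1, was at 26.7, 24.9, 25.2 and 26.7 CPM in control and 28.1, 35.7, 32.9 and 28.8 CPM in C26. All 4 C26 libraries were higher, and the log2 fold change of 0.28 did not pass (edgeR adjusted p = 0.0702), though it passed in limma-voom, with total library size and without C26 library 1. Its value was lower with the muscle covariate (0.084), without C26 libraries 2 and 3 (0.14) and with the length and GC correction (0.15). Lig3 shares 1826 exon bases with Rffl on the opposite strand. Xrcc1, the scaffold, and Tdp1, Tdp2 and Parp2 had log2 fold changes from -0.11 to 0.037.

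Mismatch repair had none past the threshold. Msh6, which recognises single mismatches, was at 88.6, 92.5, 90.7 and 86.9 CPM in control and 105, 126, 96.6 and 90.2 CPM in C26. C26 libraries 1 and 2 were well above the controls, library 3 was above them and library 4 lay among them (log2 fold change 0.22, edgeR adjusted p = 0.129, and 0.12 without C26 library 2). Msh3, which recognises larger loops, was at -0.0038 and Pms2, the nuclease subunit, at 0.09.

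The nucleotide excision genes were the only role in which every listed gene lay below 0. The median log2 fold change of the 4 was -0.24, 1 of them fell, and with total library size 1 of the 4 lay above 0. Xpa, whose product verifies the lesion and positions the nucleases, lies on chromosome 4 from 46155347 to 46196311. Xpa was at 19.2, 20, 21.7 and 19.9 CPM in control and at 18.3, 15, 14.2 and 15.3 CPM in C26. C26 library 1 lay just under the lowest control and the other C26 libraries well under it. The log2 fold change was -0.37 ± 0.102 (SE), a ratio of 0.775 (edgeR adjusted p = 0.039). Of the fits that drop a single library, the one lacking C26 library 1 kept the call and the other 7 lost it (edgeR adjusted p up to 0.104, log2 fold change -0.45 to -0.32). It was lost as well with total library size (-0.29), without C26 libraries 2 and 3 (-0.27), with the muscle covariate (-0.26) and with a correction for length and GC (-0.26, adjusted p = 0.131). Xpa shares 77 exon bases with Ncbp1 on the opposite strand, whose mean was 159 ± 3.33 CPM (SD, n = 4) in control tumours, against 139 ± 15.9 CPM in C26 tumours. Ercc1, the partner of the XPF nuclease, was at 29.2, 37.9, 35.1 and 34.4 CPM in control and 29.2, 28.8, 27.8 and 26 CPM in C26. Control library 1 was level with C26 library 1 to the digits given, and the other controls were higher (log2 fold change -0.29, adjusted p = 0.0577). Ercc1 passed in DESeq2, without the filter and without control library 1. Xpc, which finds distorted DNA, and Ercc2, a helicase of TFIIH, had values of -0.20 and -0.042 (adjusted p = 0.22 and 0.783).

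**Figure D2:**
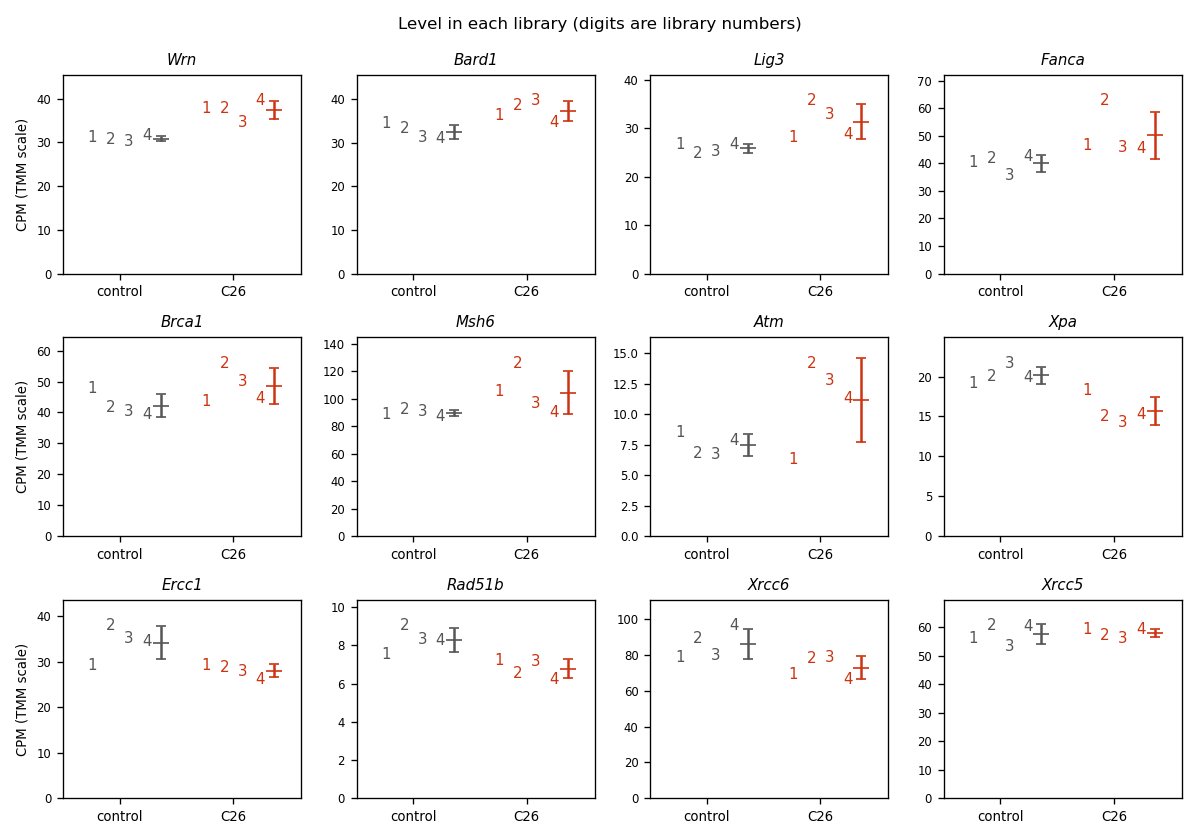
CPM on the TMM scale (y axis, from 0) of 12 repair genes in each library, shown by its number, with the mean and SD of 4 libraries beside each group. Wrn is separate in all 8 libraries, Atm is low in C26 library 1 and high in the other C26 libraries, and C26 library 2 is the highest point for Fanca, Brca1, Msh6 and Lig3.

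C26 library 2 had the highest level of the 8 libraries for 19 of the 42 repair genes (45.2%), compared with 17.7% of all tested genes. Among the 18 recombination and Fanconi genes it was highest for 12 (66.7%), with a median of 0.28 above the gene's own mean on the log2 scale, against 0.07 in C26 library 3, -0.05 in library 1 and -0.09 in library 4. Replication genes, 26 in number, showed the same library as the highest for 19 (73.1%, median 0.20), and C26 library 4 as the lowest for 17 (65.4%, median -0.20). Of these 26 replication genes none passed in edgeR or in DESeq2 (2 and 1 at an unadjusted p under 0.05). In edgeR 20 lay above 0, or 9 without C26 library 2. Of 20 mitosis genes (median log2 fold change 0.12), the spindle checkpoint gene Bub1b and the cytokinesis motor gene Kif23 were higher in C26 (0.31 and 0.29, edgeR adjusted p = 0.0108 and 0.0187) and Birc5, a chromosomal passenger gene, was lower (-0.28, adjusted p = 0.0415). Kif23 missed the threshold without control library 1 or without control library 3, and Birc5 kept its call in 2 of 8 fits that drop a single library. None of these 3 calls held with the muscle covariate (edgeR adjusted p = 0.275 for Bub1b, 0.442 for Kif23 and 0.215 for Birc5), Kif23 and Birc5 were also lost with the length and GC correction (0.0738 and 0.19), and Birc5 with total library size (0.0963). With the muscle covariate, which largely follows group, Bub1b was 0.23 and Kif23 0.17. Their standard errors were 0.0998 and 0.103, against 0.0649 and 0.0691 in the main fit. Summed over the 13 recombination genes, the level was 346, 355, 322 and 348 CPM in control and 349, 413, 376 and 339 CPM in C26 libraries 1 to 4. Summed over the 4 nucleotide excision genes it was 108, 118, 111 and 113 CPM in control and 97.7, 96.7, 96.6 and 99.5 CPM in C26, with no spike in library 2. Without C26 library 2 the median log2 fold change was 0.02 over the 42 genes, 0.00 over the recombination genes and 0.19 over the Fanconi genes, and stayed at -0.23 over the excision genes. The same library held the most muscle RNA (763 CPM), and the part of that RNA in these values was not tested.

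**Figure D3:**
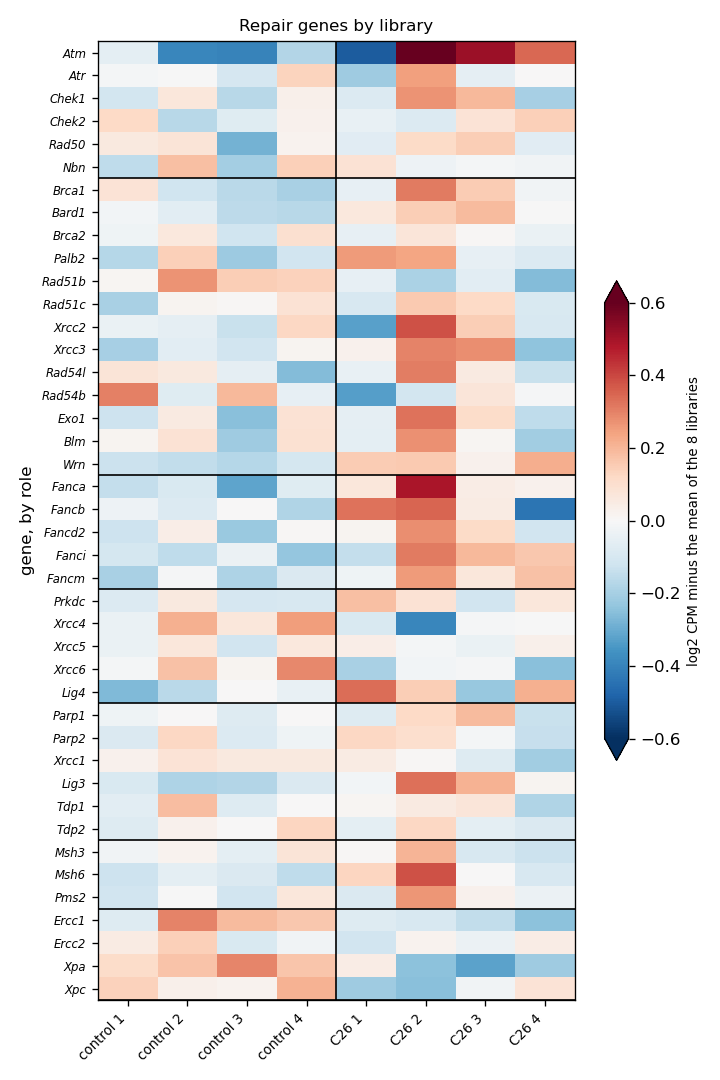
Log2 CPM of each repair gene minus its mean over the 8 libraries (colour, clipped at 0.6 in either direction), with genes in rows by role and libraries in columns. C26 library 2 is red over most recombination and Fanconi genes, and the nucleotide excision genes at the bottom are mostly blue in C26.

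Log2 fold changes were higher for longer transcripts. Across the 42 repair genes, which are not independent replicates and share the same libraries, Spearman's rho between the length of the principal transcript and the log2 fold change was 0.62. It was 0.52 over 126 other repair genes and 0.41 over 12938 protein-coding genes tested. Of 9 repair genes with transcripts under 2500 bases 3 lay above 0 (median -0.04). Of 14 with 5000 bases or more 12 did (median 0.18), the exceptions being Brca2 and Atr. The same bins over all protein-coding genes had medians of -0.09 and 0.13, with 8.3% of the short genes called lower and 10.7% of the long genes called higher. Xpa has the shortest transcript of the 42 (955 bases), and Wrn has 6262 bases. With a length and GC correction, rho was 0.29 over the 42 genes, 20 of them lay above 0 at a median of -0.03, and none passed edgeR (7 at an unadjusted p under 0.05). Brca2 and Prkdc, with transcripts of 10724 and 12647 bases, had log2 fold changes of -0.0066 and 0.11 before that correction and of -0.22 and -0.11 after it (edgeR adjusted p = 0.0679 for Brca2).

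**Figure D4:**
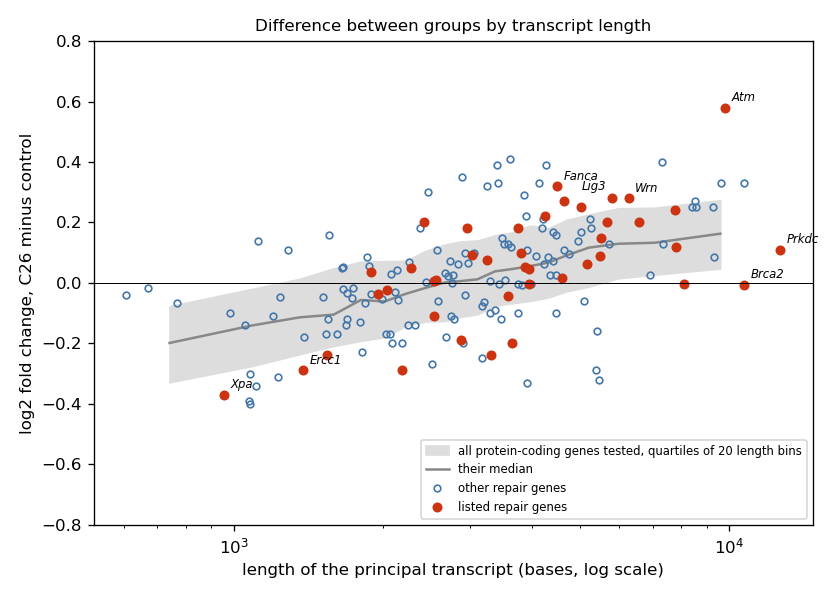
Log2 fold change (y axis) against the length of the principal transcript (x axis, log scale) for the 42 repair genes (filled) and 126 other repair genes (open), over the quartiles and median of all protein-coding genes tested in 20 bins of length. Xpa is at the short end and low, and most transcripts of 5000 bases or more lie above 0.

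Transcripts of proteins that bind each other were compared within each library, where the scaling cancels. Over 11 pairs, no difference in ratio passed an exact two-sided permutation test after adjustment (adjusted p of 0.105 or more, where 4 against 4 libraries give 70 arrangements and a smallest p of 0.0286). With 11 pairs, a few pairs at that smallest p could not pass after adjustment. The test therefore cannot decide whether their ratios differ. The ratio of Lig3 to Xrcc1 was 0.329, 0.297, 0.303 and 0.322 in control and 0.341, 0.446, 0.436 and 0.418 in C26, without overlap (log2 change 0.38, exact p = 0.0286). Ercc1 over Ercc4, its nuclease partner, was at 2.37, 3.12, 2.57 and 2.52 in control and 2.02, 2.05, 1.86 and 1.87 in C26 (log2 change -0.43, exact p = 0.0286). Rad51b over Rad51c differed by -0.33 (exact p = 0.0286). Xrcc5 over Xrcc6 had a mean log2 ratio of -0.57 ± 0.0816 in control and -0.33 ± 0.158 in C26 (SD, n = 4, exact p = 0.0571), which does not pass. The ratios of Brca1 to Bard1 and of Rad50 to Nbn differed by -0.00 and 0.05 on the log2 scale.

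Many repair genes share their start region with a neighbour. A protein-coding gene starts on the opposite strand within 1000 bases upstream of 19 of the 42 (45.2%), compared with 10.1% of 12938 protein-coding genes tested. Among these neighbours are Nbr1 194 bases from Brca1, Npat 307 bases from Atm, the replication helicase gene Mcm4 466 bases from Prkdc, Emc3 30 bases from Fancd2 and Purg 798 bases from Wrn. Of the 17 neighbours that were tested, Acot13 beside Tdp2 fell (37.1 ± 0.832 to 29.8 ± 3.02 CPM, SD, n = 4, edgeR adjusted p = 0.0313) while Tdp2 had a log2 fold change of -0.038. Purg had a log2 fold change of 0.30 beside 0.28 for Wrn (adjusted p = 0.116), and Npat of 0.25 beside 0.58 for Atm (adjusted p = 0.122). For 11 of the 42 genes, exons also overlap those of another protein-coding gene with a mean count of 100 or more. Among them is Rad54l, which shares 1184 exon bases with Lrrc41, a gene that rose (log2 fold change 0.42, edgeR adjusted p = 0.0322).

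Outside the 42, a list of 128 other repair genes was read from the same fit. Of 126 tested, 5 rose and 2 fell in edgeR (5.56%), and the median log2 fold change was 0.01. Those that rose were Trp53bp1 (39.2 ± 1.58 to 49.2 ± 3.21 CPM), whose product 53BP1 protects broken ends from resection, Uvssa (33.3 ± 2.63 to 43.9 ± 3.36 CPM), which acts at stalled RNA polymerase, Rev3l (33.8 ± 0.807 to 42.4 ± 2.89 CPM), the catalytic subunit of translesion polymerase zeta, the glycosylase gene Mbd4 (11.2 ± 0.9 to 14.8 ± 0.63 CPM) and the helicase gene Recql (21.4 ± 1.51 to 28 ± 4.28 CPM), each as mean ± SD of 4 libraries. The groups were separate for these genes except Recql. Those that fell were Faap20 (30.1 ± 4.02 to 22.8 ± 2.19 CPM) and Cenps (29.1 ± 1.07 to 22.9 ± 2.54 CPM), small subunits that work with the Fanconi core complex. Their transcripts have 1076 and 1110 bases, while those of the 5 that rose have from 3389 to 10713, and with the length and GC correction or the muscle covariate none of the 7 passed. Uvssa passed in all 8 fits that drop a single library (edgeR adjusted p up to 0.0392). Trp53bp1 missed the threshold when either control 1 or control 2 was dropped, and Rev3l when either control 3 or C26 library 4 was. Recql kept its call in 1 of the 8 fits, the one lacking C26 library 1, and Mbd4 in 2, those lacking C26 library 1 or 3. Faap20 missed the threshold in 4 of the fits (controls 1 and 3, C26 libraries 1 and 2) and Cenps in 5 (controls 1, 2 and 3, C26 libraries 2 and 4). Of 19 nucleotide excision genes outside the 42, 10 lay above 0 (median 0.02, 1 higher).

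Of 20 genes that p53 is known to induce after DNA damage, 4 fell and none rose in edgeR (2 higher and 5 lower at an unadjusted p under 0.05), with a median log2 fold change of -0.06, beside 4.12% of all tested genes lower. With total library size 2 were higher and 3 lower, and none passed with the length and GC correction (9 at an unadjusted p under 0.05) or the muscle covariate (7 at an unadjusted p under 0.05). Gadd45a, a growth arrest gene, was at 68.4, 77, 62.2 and 118 CPM in control and 43.1, 45.8, 52.7 and 47.8 CPM in C26 (log2 fold change -0.78, adjusted p = 0.0422). Bbc3, which encodes the death factor PUMA, went from 9.63 ± 0.663 to 6.39 ± 1.21 CPM, Sesn2 from 59 ± 9.58 to 43.4 ± 4.85 CPM and Bax from 79.7 ± 2.49 to 65.1 ± 5.94 CPM (SD, n = 4). Each of these calls missed the threshold in some fits that drop a single library, with edgeR adjusted p up to 0.121 for Gadd45a, 0.0632 for Bbc3, 0.0704 for Sesn2 and 0.0683 for Bax. Bax had a log2 fold change of -0.29, or -0.12 with the length and GC correction (adjusted p = 0.312).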

How the data were processed

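The authors deposited a table of raw read counts for 8 libraries, in whole numbers by Ensembl gene. Trimming with Trim Galore 0.6.7, alignment tool HISAT2 2.2.1 and counter featureCounts 2.0.1, on build mm10, are listed per the submitters' processing notes, while the series design text names Cutadapt, STAR and RSEM. The values do not tell which was used, and no source used here gives the annotation, the strand setting or the treatment of multi-mapping reads. Overlapping genes may therefore have lost or shared reads, and opposite strands may not be separated.

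Of 56691 identifiers, 52073 had a symbol in GENCODE M21 (GRCm38, the assembly of mm10), and the others took 0.769% of counts. Counts were filtered with filterByExpr, scaled by TMM and fitted over all 15755 remaining genes with the robust quasi-likelihood test of edgeR 4.0.16 in R 4.3.3, on group alone (two-sided), calling genes at a Benjamini-Hochberg adjusted p under 0.05. Levels are CPM on the TMM scale, with a prior count of 2 for log2 CPM. Levels per kb, and lengths, refer to the principal transcript in GENCODE M21. Alternatives were RLE factors, total library size, other filters, DESeq2 1.42.0, limma 3.58.1 (voom), a replicate block, length and GC offsets (splines with 4 degrees of freedom), a muscle covariate, 1 surrogate variable (sva 3.50.0) and leaving out libraries. Intervals give the uncertainty of the log2 fold change between groups, judged from the variation among these 8 libraries, and not the range of single libraries.

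The genes, lists, alternatives and pairs were chosen with earlier results of these data known. Values in every library are given for genes past the threshold or with separate groups and for 12 genes of central role, named by a written rule, and up to 4 genes per further list are named by smallest p.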

Additional observations from a re-analysis of the deposited data

Results flagged for a closer look

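Among 84 groups of 4 libraries examined (42 repair genes in control and in C26), 4 held a library whose gap to its nearest neighbour took most of the group's range (Dixon's test at 95%), and chance alone flags about 1 group in 20. In C26 these were Nbn in library 1 (28.8 CPM, the others between 26.5 and 26.9), Fanca in library 2 (62.7 CPM, the others between 45.3 and 46.6) and Tdp2 in library 2 (72.9 CPM, the others between 63 and 64.2). In control it was Prkdc in library 2 (22.7 CPM, the others between 20.4 and 20.6). For Nbn, Tdp2 and Prkdc the outlying value lay within the range of the other group. Library 2 of C26 is also the library with the highest summed replication genes (3118 CPM, the others between 2355 and 2826) and the highest summed muscle markers, and their part in these values was not tested.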

How the results depend on the processing

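The count of repair genes past the threshold, 2 in the fit reported, was 5 with total library size (all higher), 5 without the low-count filter, 5 in DESeq2, and 0 with the replicate block (10 at an unadjusted p under 0.05), with length and GC offsets or with the skeletal muscle covariate (4 at an unadjusted p under 0.05), and ran from 0 to 4 when single libraries were left out. Their median log2 fold change of 0.06 became -0.03 with length and GC offsets, -0.12 with the muscle covariate and -0.05 with C26 libraries 2 and 3 left out together, and ran from 0.02 to 0.10 over single libraries left out. Other repair genes numbered 13 with total library size, 14 without the filter, 14 in DESeq2, 1 with offsets (Aptx) and 1 with the muscle covariate (Rpa2), both named after their values were seen, and from 2 to 8 over single libraries. Over all genes, 1223 of 15755 passed in the fit reported. Of the same 15755, 1949 passed with total library size, 1813 in DESeq2 and 1184 with the replicate block. Offsets gave 575 (30.4% higher) and the muscle covariate 138. Without the filter 1948 passed, out of a larger set of 32341 genes. Over single libraries left out the count ran from 643 to 1457.

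Of the 42 genes, 17 had the opposite sign with the muscle covariate, 10 with length and GC offsets, 10 without C26 libraries 2 and 3 and 6 with total library size. Among the 32 genes, members and others, followed singly through the alternatives, signs changed in 25 fits, each for genes that did not pass. Brca2 was 0.067 with total library size, 0.0087 in limma-voom and 0.011 with a surrogate variable. Atr was 0.07 with total library size, 9.1e-05 without the filter and 0.021 with a surrogate variable. Prkdc was -0.11 and Xrcc5 -0.035 with offsets. With the muscle covariate Brca1 was -0.0091, Parp1 -0.13, Fancd2 -0.13 and Msh6 -0.042, and Parp1 was -0.082 without C26 libraries 2 and 3. Over single libraries left out Brca2 ran from -0.05 to 0.025, Atr from -0.092 to 0.062, Parp1 from -0.0031 to 0.10 and Xrcc5 from -0.03 to 0.03. Whether the replicate numbers in the titles pair the libraries was not tested. Same-numbered deviations correlated at -0.0234, 0.135, -0.0195 and 0.0934, and 2 of 4 libraries matched their own number best, which does not exclude pairing. With the block, Wrn and Xpa kept their log2 values of 0.28 and -0.37 and missed the threshold (edgeR adjusted p = 0.0542 and 0.057). The causes of these shifts were not tested. Depth limits the least abundant genes most: Rad54b rests on a mean of 111 counts per control library and 101 per C26 library.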
